A study of Homo sapiens with 8 samples.

Results

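The genes described here were those whose messenger RNA was shifted in the mir-200c knockout alone, when 3 knockout clones of the breast cancer line SK-BR-3 were set against 1 wild type. They were the rows with a log2 ratio to wild type at or beyond 0.8 in either direction in the mir-200c knockout of set 1, and within 0.3 of 0 in both the mir-141 and the double knockout of that set. Of 9245 rows of the deposited table, 61 met these limits, 33 higher and 28 lower, with replication-dependent histone genes left out. The members were chosen by the log2 ratios of all 3 set 1 clones, so these are given as a description with no test, and higher and lower genes are kept apart.

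SK-BR-3 cells are a human breast cancer line that carries an amplified ERBB2 gene. TALENs, which are paired designed nucleases, had been used to knock out mir-200c, mir-141 or both. In set 1 the mir-200c knockout was clone 11, the mir-141 knockout clone 23 and the double knockout clone 55, and in set 2 they were clones 29, 10 and 61. Each set had its own wild type, which gave 8 libraries in 4 groups of 2. A genotype was 1 clone and 1 library in each set, so genotype and clone cannot be told apart within a set, and a set holds no replicates. Members are described by their set 1 values. Set 2 values are added for some of the members whose row of set 2 could be placed. Luminal epithelial markers, which define this line's cell type, had median log2 ratios of 0.00 in the mir-200c knockout, -0.01 in the mir-141 knockout and -0.10 in the double knockout of set 1, over 21 measured markers. Their absolute levels, and the depth of each library, cannot be read from ratios.

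MicroRNAs guide repressor proteins to messenger RNAs that pair with bases 2 to 8 of the microRNA, its seed. mir-200c and mir-141 belong to the mir-200 family, known in epithelial cells for holding down the factors ZEB1 and ZEB2, which drive the mesenchymal state. They are made from 1 cluster on chromosome 12. A direct target of mir-200c alone would carry a site that pairs with the mir-200c seed and would lose that repressor in the single and in the double knockout alike. By the choice made here, no member was beyond 0.3 in the double knockout of set 1. The rule fixed this in advance, so it is no finding about direct targets, and direct targeting was not tested.

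The 2 mature sequences are shown because their seeds, in capitals, set which sites were searched. They were taken from RefSeq (GRCh38.p14) and lie on the plus strand at chr12:6963742-6963764 for hsa-miR-200c-3p and chr12:6964155-6964176 for hsa-miR-141-3p. Within the seed they differ by C4U, the base of mir-141 first and that of mir-200c last, counted from the 5′ end.
hsa-miR-200c-3p: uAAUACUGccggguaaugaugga
hsa-miR-141-3p: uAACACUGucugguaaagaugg

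A few members carried a mir-200c-3p site in their 3′ UTR. The sites of 8 bases pair with the whole seed and have an A opposite the first base of the microRNA. They were found in SESN1 and RWDD2A, and these are shown with the 10 bases before them and the 6 after them. Capitals mark the site. The SESN1 site began at base 1060 of a 3′ UTR of 1107 bases and that of RWDD2A at base 887 of 2660 (GENCODE release 29, GRCh38).
SESN1: tgaagtctgtCAGTATTActggta
RWDD2A: atcctgatacCAGTATTAgtttaa

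In the mir-200c knockout of set 1, 3.16% of all rows had a ratio of at least 0.8 and 1.96% one of -0.8 or less. The 33 higher members made up 0.357% of all rows and the 28 lower members 0.303%. The median log2 ratio of the higher members was 0.91 in the mir-200c knockout, 0.08 in the mir-141 knockout and 0.10 in the double knockout. For the lower members these medians were -1.01, -0.03 and -0.05. Over all rows they were -0.02, -0.01 and -0.03.

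**Figure D1:**
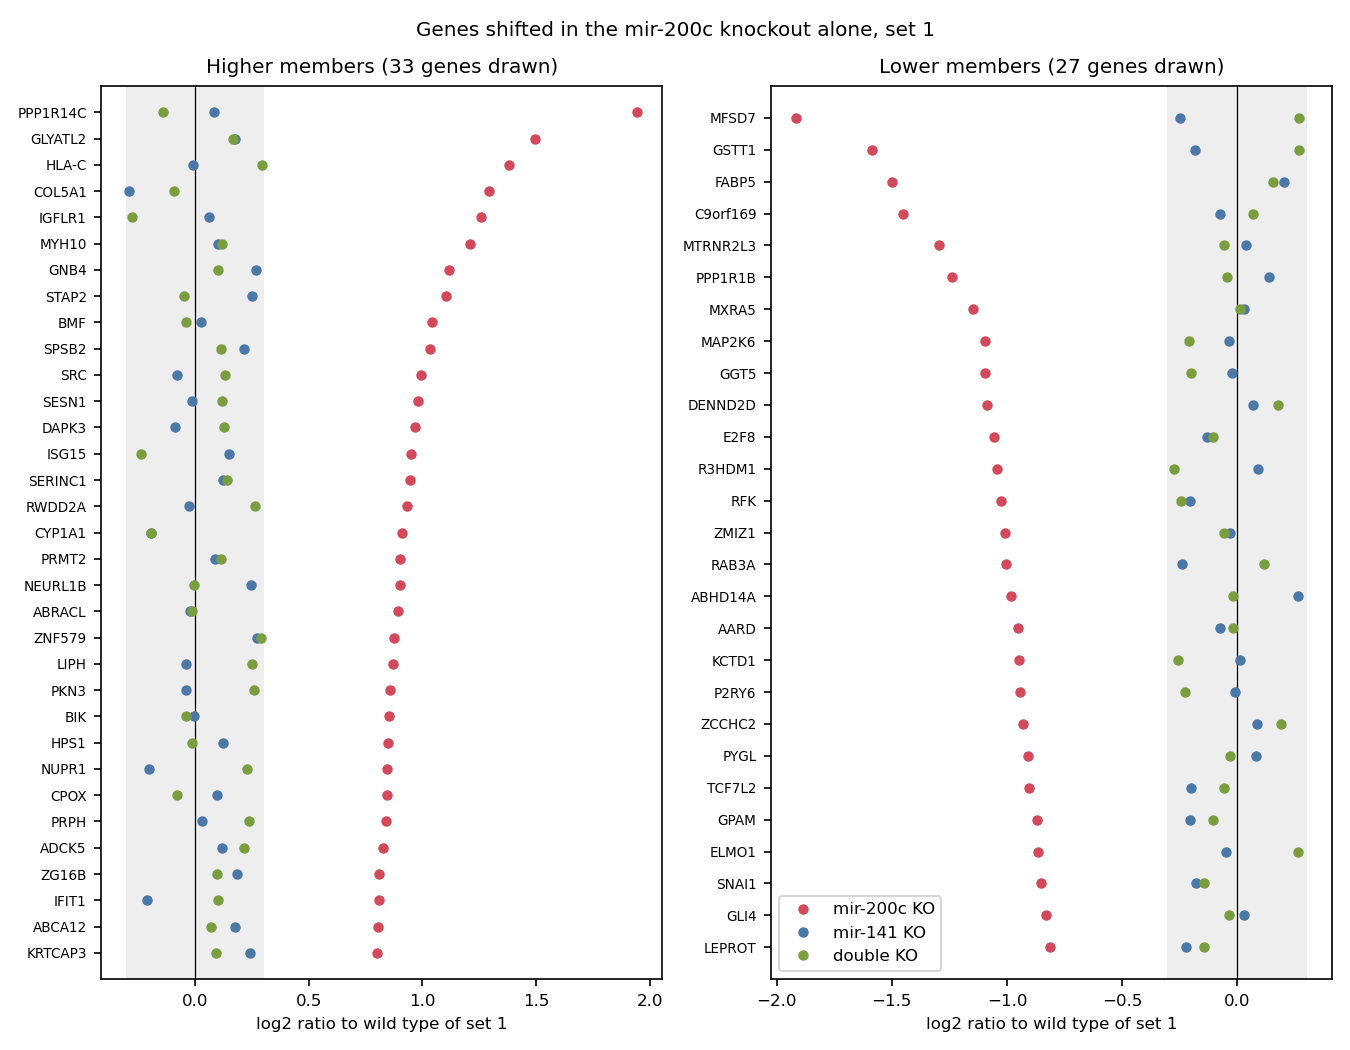
Log2 ratio to the wild type of set 1 (horizontal) of each of the 33 higher members (left) and of 27 of the 28 lower members (right), with 1 point per knockout clone and 1 library behind each point. The grey band spans the limit of 0.3 on either side of 0, and the mir-200c knockout points run between 0.80 and 1.94 on the left and between -1.91 and -0.81 on the right.

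Members are described below by the known role of their products, in groups made after the values were seen that are not tested sets. PPP1R14C, which encodes an inhibitor of protein phosphatase 1, had the highest ratio of all, 1.94 in the mir-200c knockout, 0.08 in the mir-141 knockout and -0.14 in the double knockout. The tyrosine kinase SRC had 0.99 in the mir-200c knockout, against -0.08 and 0.13 in the mir-141 and double knockouts. DAPK3, a serine/threonine kinase that acts on myosin light chains, had 0.97 in the mir-200c knockout, against -0.09 and 0.12 in the other clones. The signalling adaptor STAP2 had 1.10 in the mir-200c knockout, 0.25 in the mir-141 knockout and -0.05 in the double knockout. GNB4, a beta subunit of heterotrimeric G proteins, had 1.12 in the mir-200c knockout, with 0.27 and 0.10 in the mir-141 and double knockouts.

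The lists of actin cytoskeleton genes (25 measured) and of matrix and integrin genes (20 measured) held 0 members, but single cytoskeletal, collagen and surface genes outside them met the rule. MYH10, the heavy chain of a non-muscle myosin, had a log2 ratio of 1.21 in the mir-200c knockout and 0.10 and 0.12 in the mir-141 and double knockouts. COL5A1, a chain of fibrillar collagen V, had 1.29 in the mir-200c knockout, with -0.29 in the mir-141 knockout, near the limit on the other side, and -0.09 in the double knockout. HLA-C, a heavy chain of major histocompatibility complex (MHC) class I, had 1.38 in the mir-200c knockout, -0.01 in the mir-141 knockout and 0.29 in the double knockout. IGFLR1, a receptor of the tumour necrosis factor receptor family, had 1.26 in the mir-200c knockout, 0.06 in the mir-141 knockout and -0.28 in the double knockout. HLA-C is uncertain, because it shares sequence with HLA-B (1.27 in the mir-200c knockout), which also overlaps it in the annotation.

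Among the remaining higher members, BMF, a BH3-only protein that antagonises survival proteins of the BCL2 family, had a ratio of 1.04 in the mir-200c knockout, 0.03 in the mir-141 knockout and -0.04 in the double knockout. SESN1, a sestrin induced by p53 that restrains mTORC1, had 0.98 in the mir-200c knockout, against -0.02 and 0.12 in the other 2 clones. BIK, another BH3-only protein, had 0.85, -0.01 and -0.04 in the mir-200c, mir-141 and double knockouts, and was singled out after its values were seen. GLYATL2, which joins glycine to fatty acids, had 1.497 in the mir-200c knockout, 0.18 in the mir-141 knockout and 0.17 in the double knockout. SPSB2, a SOCS box adaptor of a ubiquitin ligase, had 1.03, 0.21 and 0.11 in the mir-200c, mir-141 and double knockouts. SERINC1, a multispan membrane protein, had 0.94 in the mir-200c knockout, 0.12 in the mir-141 knockout and 0.14 in the double knockout. The remaining higher members lay between 0.80 and 0.93 in the mir-200c knockout, apart from ISG15, given with the interferon genes below.

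Among the lower members the lowest ratio belonged to MFSD7, which encodes a transporter of the major facilitator family. It had -1.91 in the mir-200c knockout, -0.25 in the mir-141 knockout and 0.27 in the double knockout. Its annotated gene overlaps MYL5, on the opposite strand, which had 1.19 in the mir-200c knockout. Whether counting used strand is not stated, so the values of MFSD7 and MYL5 are uncertain. The same limit applies to other members that overlap a measured gene on the opposite strand, among them RAB3A, MYH10, IGFLR1, RWDD2A and IFIT1.

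GSTT1, a glutathione S-transferase, had a log2 ratio of -1.58 in the mir-200c knockout, -0.19 in the mir-141 knockout and 0.27 in the double knockout. GGT5, a gamma-glutamyltransferase that cleaves glutathione conjugates, had -1.09 in the mir-200c knockout, -0.02 in the mir-141 knockout and -0.20 in the double knockout. FABP5, a carrier of fatty acids with several processed pseudogenes and therefore uncertain, had -1.50 in the mir-200c knockout, 0.20 in the mir-141 knockout and 0.15 in the double knockout. RFK, riboflavin kinase, had -1.03 in the mir-200c knockout, -0.21 in the mir-141 knockout and -0.25 in the double knockout.

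PPP1R1B (DARPP-32), like PPP1R14C an inhibitor of protein phosphatase 1, had -1.24 in the mir-200c knockout, 0.14 in the mir-141 knockout and -0.04 in the double knockout. MAP2K6, a kinase that activates p38, had -1.10 in the mir-200c knockout, -0.04 in the mir-141 knockout and -0.21 in the double knockout. E2F8, a repressor among the E2F cell cycle factors, had -1.06 in the mir-200c knockout, -0.13 in the mir-141 knockout and -0.10 in the double knockout. ZMIZ1, a transcriptional coactivator, had -1.01, -0.03 and -0.06 in the mir-200c, mir-141 and double knockouts. SNAI1, a transcription factor that drives the epithelial to mesenchymal transition, had -0.85 in the mir-200c knockout, -0.18 in the mir-141 knockout and -0.15 in the double knockout, close to the limit. Vesicle traffic was represented by RAB3A (-1.003, -0.24 and 0.12 in the mir-200c, mir-141 and double knockouts) and DENND2D, an activator of Rab GTPases (-1.09, 0.07 and 0.18). MXRA5, a secreted matrix protein, had -1.15 in the mir-200c knockout and 0.03 and 0.01 in the mir-141 and double knockouts.

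C9orf169 had -1.45 in the mir-200c knockout, against -0.07 in the mir-141 and 0.07 in the double knockout. MTRNR2L3, which is nearly identical to mitochondrial ribosomal RNA and so uncertain, had -1.29, 0.04 and -0.06 in the mir-200c, mir-141 and double knockouts. R3HDM1 had -1.05, 0.09 and -0.27 in the same clones. The other lower members lay between -0.98 and -0.81 in the mir-200c knockout.

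Members near the limit differed little from rows that missed it. The 3 nearest higher members were KRTCAP3 (0.802), ABCA12 (0.806) and IFIT1 (0.807), and the 3 nearest rows outside were GRAMD1A (0.797), EZR (0.796) and ABCA3 (0.794). Among lower genes LEPROT (-0.81), GLI4 (-0.83) and SNAI1 (-0.85) were nearest inside, and C11orf1 (-0.79), NXPH4 (-0.78) and PPIAL4E (-0.78) nearest outside. LEPROT shares exons with LEPR and is uncertain. With the wild type left out, so that the mir-200c knockout was set against the other 2 clones directly, 14 of the 33 higher and 14 of the 28 lower members still met the limits.

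The same limits were turned to each other clone. Histone genes were left out of the set 1 counts of rows shifted alone, but not of the rows beyond 0.8 or of set 2. In set 1 the mir-200c knockout had 61 rows shifted alone, 12.9% of its 473 rows beyond 0.8, against 6 rows (3.41%) in the mir-141 knockout and 23 rows (5.81%) in the double knockout. In set 2 the mir-200c knockout had 9 such rows (3.11%), against 36 (8.80%) in the mir-141 knockout and 41 (7.62%) in the double knockout. The mir-200c knockout thus had the most such rows of its set in set 1 and the fewest in set 2. These counts describe single clones, and the 3 clones of a set share its wild type.

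Interferon-stimulated genes, which cells switch on after sensing interferon, held 2 members. ISG15, a ubiquitin-like protein, had 0.95 in the mir-200c knockout, 0.15 in the mir-141 knockout and -0.24 in the double knockout. IFIT1, which binds foreign RNA, had 0.81, -0.21 and 0.10 in the same clones. Of 36 genes on this list 17 were measured, with medians of 0.65 in the mir-200c knockout, 0.12 in the mir-141 knockout and 0.10 in the double knockout. In the mir-200c knockout 14 of the 17 lay above 0, where 48% of all rows did, and their ratios ran between -0.70 and 2.50. In the mir-141 knockout 12 of the 17 lay above 0 (48.1% of all rows), and in the double knockout also 12 (46.3%). The 17 include both members, which the rule chose by these ratios. At the 9 rows of the list that could be placed in set 2, as described further on, the medians were 0.40 in the mir-200c knockout, 0.59 in the mir-141 knockout and 0.60 in the double knockout.

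The promoters of both are shown because they hold the letters GAAA, then any 2 bases, then GAAA or, on the other strand, TTTC, any 2 bases and TTTC, the core of the interferon-stimulated response element. Capitals mark the matches, which overlap each other in ISG15. Each sequence spans 250 bases before to 50 after the gene's start in RefSeq (GRCh38.p14, plus strand), at chr1:1013247-1013546 for ISG15 and chr10:89392373-89392672 for IFIT1. The letters occurred in 2 of 28 higher members with a promoter in the table (7.14%) and in 0 of 16 lower members, against 2.48% of rows and 3.57% of all promoters. A match describes the sequence only.
ISG15: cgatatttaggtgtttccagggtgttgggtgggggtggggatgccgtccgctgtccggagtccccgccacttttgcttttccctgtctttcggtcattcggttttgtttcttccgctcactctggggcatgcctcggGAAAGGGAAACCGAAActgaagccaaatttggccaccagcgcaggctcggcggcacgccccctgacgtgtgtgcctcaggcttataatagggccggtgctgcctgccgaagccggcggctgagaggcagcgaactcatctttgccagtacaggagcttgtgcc
IFIT1: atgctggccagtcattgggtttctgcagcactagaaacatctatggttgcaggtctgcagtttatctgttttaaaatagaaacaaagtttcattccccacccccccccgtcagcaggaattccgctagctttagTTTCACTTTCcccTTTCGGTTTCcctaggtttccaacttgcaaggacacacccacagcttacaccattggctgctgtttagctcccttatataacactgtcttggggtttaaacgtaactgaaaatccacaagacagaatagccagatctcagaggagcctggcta

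Of the other 28 lists, 5 held 1 member each and 23 held 0. MHC class I presentation, which displays peptides to T cells, held HLA-C. All 11 measured genes of its 15 lay above 0 in the mir-200c knockout, 7 in the mir-141 knockout and 10 in the double knockout. Their medians were 0.77, 0.10 and 0.42 in the mir-200c, mir-141 and double knockouts. Mesenchymal markers held SNAI1, a lower member, although the list as a whole had medians of 1.01, 0.25 and 0.67 in those clones over 9 of 22 markers. The p53 targets held SESN1 and had medians of 0.19, -0.02 and -0.11 over 9 of 15 genes. Fatty acid and triglyceride genes held FABP5, with medians of -0.08, -0.06 and -0.01 over 13 of 18 genes. Fibroblast markers held COL5A1, with 3 of 13 measured and ratios between -0.41 and 1.29 in the mir-200c knockout. Basal epithelial markers held 0 members, with medians of 0.25, 0.20 and 0.44 over 5 of 14 markers. All 5 lay above 0 in the mir-200c and double knockouts and 3 in the mir-141 knockout. Of the markers of other cells, 3 of 13 for blood and 2 of 7 for endothelium were measured, 0 of them members. Their ratios ran from -0.54 to 1.05 and from -0.47 to 0.73 in the mir-200c knockout. Their part in the result was not tested, and in bulk RNA fewer cells of a type and less RNA per cell cannot be told apart. Among 24 measured genes of 35 known from the literature as targets of the mir-200 family, 0 were members, and their medians were 0.15, 0.02 and 0.19.

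The share of members with a mir-200c-3p site, beside that of all rows, depended on the kind of site. A site of 7 or 8 bases was found in 5 of 33 higher members (15.2%), namely RWDD2A, SESN1, SERINC1, GNB4 and CPOX, and in 1 of 27 lower members with an annotated 3′ UTR (3.70%), MAP2K6, against 25.2% of all rows. Of the other rows at or above 0.8 in the mir-200c knockout, 29.1% had one. Sites of 8 bases were found in 6.06% of higher members and 0 lower members, against 5.04% of all rows. In the shortest annotated 3′ UTR, sites of 7 or 8 bases were found in 9.09% of higher and 3.70% of lower members, against 8.57% of all rows. Sites for mir-141-3p were found in 18.2% of higher and 7.41% of lower members, against 27.2% of all rows. The 3′ UTRs of members were shorter, with medians of 1181 bases for higher and 833 bases for lower members, against 1573 bases over all rows. Seeds of microRNAs of other tissues, measured in the same way, gave 21.2% of higher and 22.2% of lower members for miR-1-3p, against 23.5% of all rows. For miR-122-5p the shares were 24.2% and 22.2%, against 25.3%, and for miR-208a-3p 18.2% and 3.70%, against 13.7%. With 33 and 27 genes, a share changes by several points with each gene.

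**Figure D2:**
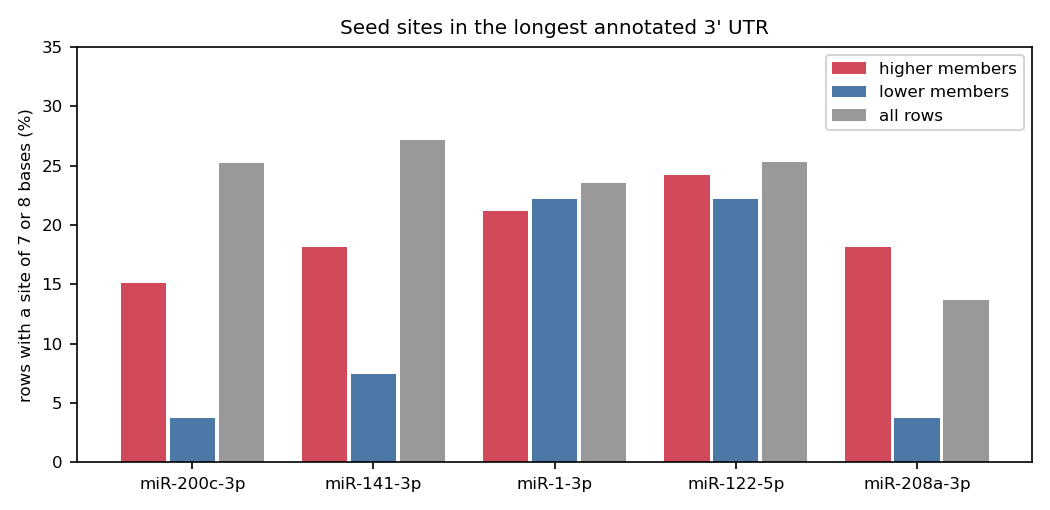
Percentage of genes with a site of 7 or 8 bases (vertical) in the longest annotated 3′ UTR for 5 microRNAs, in higher members (33), lower members (27 with a 3′ UTR) and all rows (9221). For miR-200c-3p the bars stand at 15.2%, 3.70% and 25.2%, and the 3 control microRNAs are on the right.

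Set 2 was not used to choose the members, so its mir-200c knockout, clone 29, is an independent measurement. Read beside the gene names as listed, it did not separate higher from lower members. Of the 33 higher members 19 were above 0, where 47.9% of all rows were, with a median of 0.10, and 0 reached 0.8, which 1.91% of all rows did. Of the 28 lower members 16 were below 0, where 52.1% of all rows were, with a median of -0.02, and 0 reached -0.8, which 1.21% of all rows did.

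For most rows, however, the set 2 values did not appear to stand beside the same genes as those of set 1. As listed, the rank correlation of both mir-200c knockouts over 9245 rows was 0.02. The table was divided into 23 blocks of 400 rows, and the displacement of set 2 rows that best matched the mir-141 and double knockouts of both sets was taken for each. It was other than 0 in all 23 blocks. With 20 displacements tried in each direction, unrelated rows would seldom give 0 either, so this count says little by itself. The mir-200c columns, which did not enter that choice but share each set's wild type with the columns that did, correlated better at that displacement in 22 of the 23 blocks, with a median of 0.17 when displaced and 0.02 as listed. With the displacement chosen on the odd rows of a block and read on its even rows, no row served for both. The mir-200c columns then correlated better in 17 of the 23 blocks, with medians of 0.09 when displaced and 0.01 as listed. The displacement chosen on odd rows was that of the whole block in some blocks and another in others, as in rows 8001 to 8400 (7 and -13). When the displacement was allowed to drift row by row, fitted again on the mir-141 and double knockout columns, the rank correlation of the mir-200c columns was 0.45 over all rows. It was 0.58 over the 3442 rows placed with a probability of at least 0.9. The shared wild types can raise the last 2 values, since they were read on the rows that were fitted. These correlations run across genes, which are not independent replicates. How the displacement arose was not tested.

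**Figure D3:**
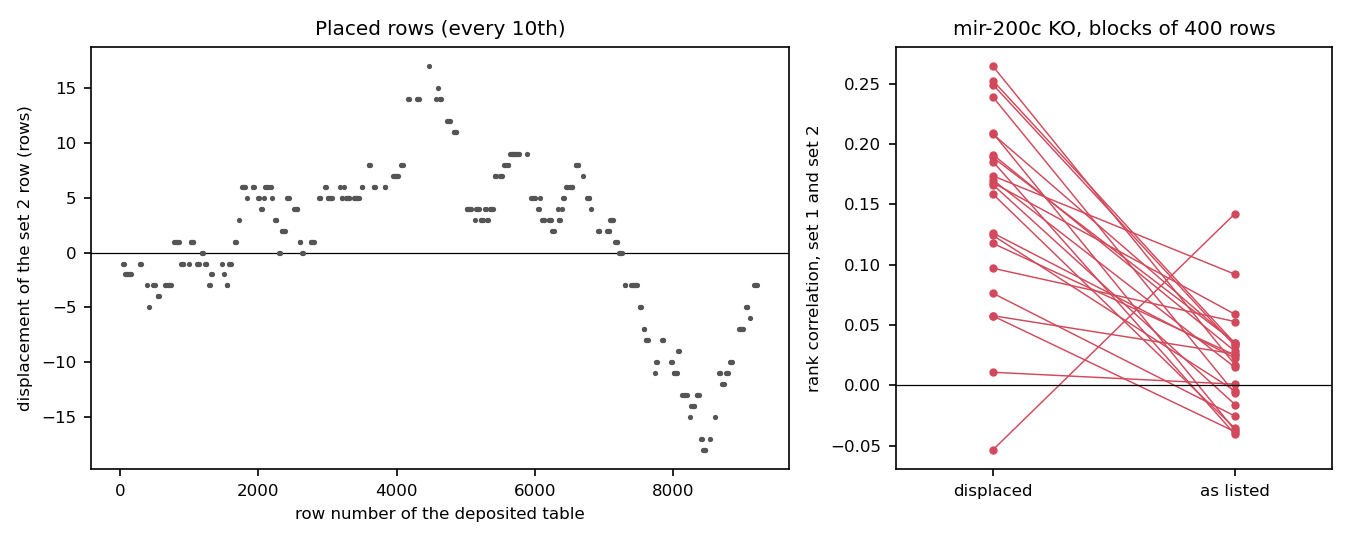
Left, the displacement of the set 2 row matched to each set 1 row (vertical, in rows) along the deposited table (horizontal), for every 10th row placed with a probability of at least 0.9. Right, the rank correlation of the mir-200c knockouts of both sets in each of 23 blocks of 400 rows, displaced and as listed, with medians of 0.17 and 0.02.

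For the members, set 2 rows were then placed from the neighbouring rows on all 3 columns. The members themselves, like all 473 rows beyond 0.8 in the mir-200c knockout of set 1, had no say in this, so their own agreement between sets did not place them. This placed 4014 rows (43.4%) with a probability of at least 0.9, with displacements from -18 to 17 rows, among them 15 higher and 16 lower members. Each of these 31 members was placed on the same row when the mir-200c columns were not used at all. For some of them the probability then fell below 0.9, among them MFSD7 (0.839), PPP1R1B (0.832), STAP2 (0.801) and ABRACL (0.763). The placement was added after the data were seen, and a placed value is an estimate of which row belongs to a gene.

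At the placed rows most members lay on the same side of wild type in set 2 as in set 1. In the mir-200c knockout 13 of the 15 placed higher members were above 0, where 47.6% of all placed rows were. Their median was 0.52, with 12 at or above 0.3 (14.7% of all placed rows) and 4 at or above 0.8 (1.84%). Of the 16 placed lower members 12 were below 0, where 52.4% of placed rows were. Their median was -0.31, with 9 at or below -0.3 (14.3% of placed rows) and 4 at or below -0.8 (1.32%). The other rows beyond 0.8 in set 1 were alike in this: 91 of 102 placed rows on the higher side were above 0 (median 0.52) and 46 of 53 on the lower side below 0 (median -0.42).

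The shift was not restricted to the mir-200c knockout there. Of the 15 placed higher members 13 were also above 0 in the mir-141 knockout of set 2 (45.3% of placed rows, member median 0.55) and 12 in the double knockout (46.3%, median 0.45), and 12 were above 0 in all 3 clones. Of the 16 placed lower members 13 were below 0 in the mir-141 knockout (54.7% of placed rows, median -0.26) but 4 in the double knockout (53.7%, median 0.19). None of the 31 placed members met the limits of the rule in set 2, a count of 0. Of all 9245 rows 9 did so in the mir-200c knockout of set 2, so few that the 0 says little about the members. The label of a shift in the mir-200c knockout alone holds for clone 11 of set 1. By the medians above it went against the placed values of set 2, for lower members in the mir-141 knockout only. Since the 3 clones of set 2 share 1 wild type, a like shift in all 3 cannot be told apart from an opposite one in that wild type.

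Of the placed members, GSTT1 and MFSD7 missed the rule in set 2 through the double knockout alone. MFSD7 had -2.10 in the mir-200c knockout of set 2, -0.24 in the mir-141 knockout and 0.39 in the double knockout, which repeats the order of its set 1 values, and it was the single placed member whose mir-200c ratio lay 0.8 beyond both other clones. GSTT1 had -0.85, -0.13 and 0.33 in the mir-200c, mir-141 and double knockouts of set 2. Both genes thus lay below -0.8 in each mir-200c knockout, and in no mir-141 or double knockout was either below -0.3.

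Other members lay on the same side of wild type in every clone of set 2. PPP1R14C had 1.06 in the mir-200c knockout, 1.94 in the mir-141 knockout and 0.90 in the double knockout. ISG15 had 1.35, 1.89 and 1.14 in those clones, and STAP2 had 1.32, 1.29 and 1.40. SESN1 had 1.99 in the mir-200c knockout, 0.60 in the mir-141 knockout and 1.49 in the double knockout, the highest placed mir-200c ratio among the members. PPP1R1B had -0.98, -2.44 and -1.22 in the mir-200c, mir-141 and double knockouts. A few placed members were near 0 in the mir-200c knockout of set 2, among them COL5A1 (-0.03), FABP5 (-0.09), C9orf169 (-0.07) and MAP2K6 (-0.10). RAB3A (0.07) and ZMIZ1 (0.18), both lower members, were slightly above 0 there.

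**Figure D4:**
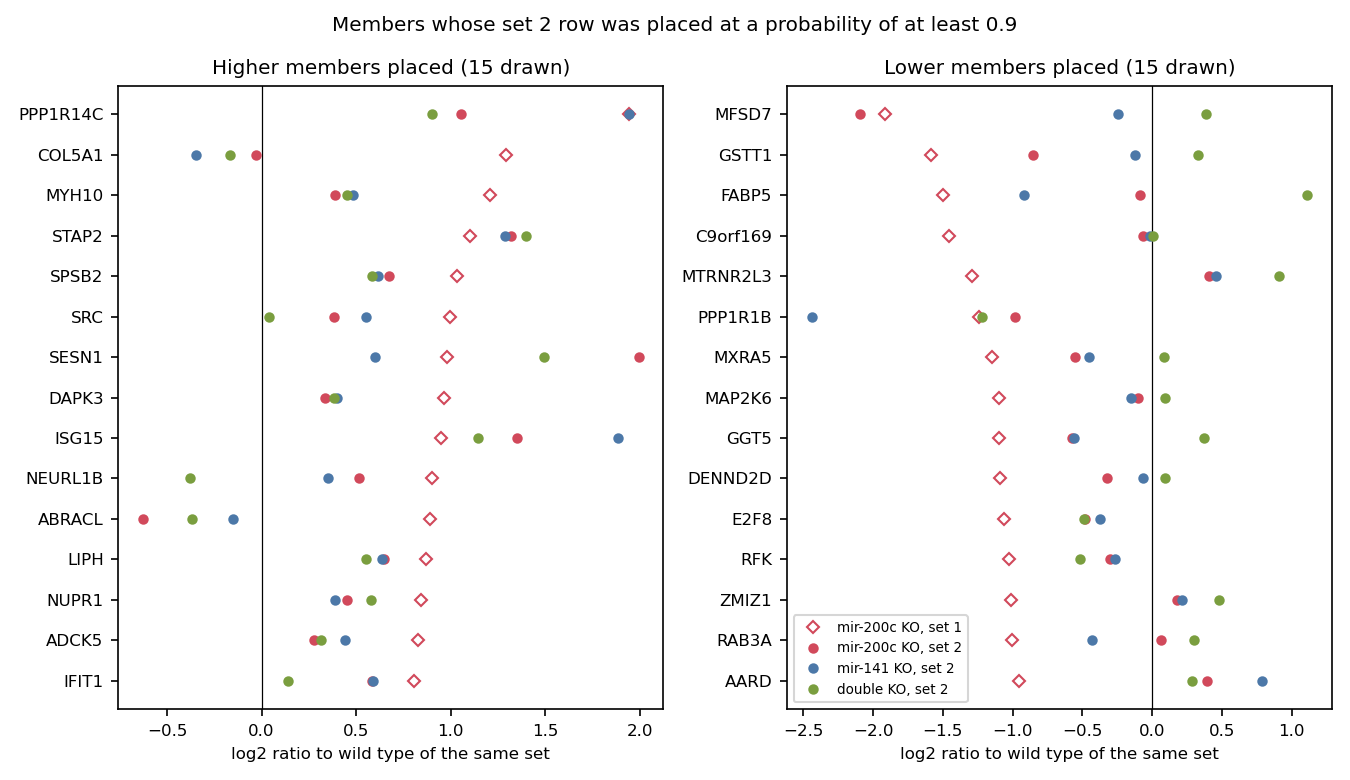
Log2 ratio to the wild type of that set (horizontal) of the 15 higher members and 15 of the 16 lower members placed in set 2, with open diamonds for the mir-200c knockout of set 1 and filled points for the 3 clones of set 2, 1 library each. Of the filled mir-200c points, 13 of 15 lie above 0 on the left and 11 of 15 below 0 on the right.

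Position on the chromosomes, which the rule did not use, set some of the higher members apart. Of the 33 higher members 5 lay on chromosome 6 from 60 Mb to its end (GENCODE release 29, GRCh38), 2.75% of the 182 rows there, against 0.309% of the 9058 other rows with a position. They were RWDD2A (chr6:83193379-83198932), SESN1 (chr6:108986437-109094819), SERINC1 (chr6:122443354-122471822), ABRACL (chr6:139028682-139043302) and PPP1R14C (chr6:150143076-150250357). The lower members had 0 there. No 2 members were neighbours among the measured rows.

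The whole of this stretch lay above wild type in the mir-200c knockout. Its start at 60 Mb was chosen after the values were seen. Its 182 rows had a median ratio (log2) of 0.31 in the mir-200c knockout of set 1, with 150 above 0 (82.4%), against -0.02 in the mir-141 knockout and -0.01 in the double knockout. In that clone the median of the other rows was -0.02, and chromosome 6 before 60 Mb one of -0.07. All 12 windows of 10 Mb in the stretch, which held 3 to 25 rows each, had a median above 0, between 0.13 and 0.44. Over all chromosomes, 6 of 258 windows with at least 10 rows had a median of at least 0.25 in the mir-200c knockout with both other clones within 0.15, and all 6 were on chromosome 6. A median of -0.25 or less in the mir-200c knockout alone was found in 2 windows, on chromosome 8 between 110 and 120 Mb (-0.31, with the lower member AARD) and on chromosome 9 between 100 and 110 Mb (-0.30). At placed rows the mir-200c knockout of set 2 showed the same stretch: its 81 rows had a median of 0.21 with 70 above 0 (86.4%), against -0.10 in the mir-141 knockout and 0.02 in the double knockout. Apart from the 473 shifted rows, these rows were placed partly by their own mir-200c values, which can raise that share. With rows placed without the mir-200c columns, and with the 473 shifted rows again left without a say, 40 of 46 were above 0, with a median of 0.19, where 48.3% of 2230 other rows were.

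Relative to the median of this stretch in set 1, PPP1R14C kept a difference of 1.63, while SESN1 had 0.67, SERINC1 0.63, RWDD2A 0.62 and ABRACL 0.58, all under the limit of 0.8. Both genes with an 8-base site, SESN1 and RWDD2A, were thus on this stretch, as was SERINC1. When each row was centred on its own 10 Mb window, 22 of the 33 higher members still met the rule, 1 of them on this stretch, and 19 of the 28 lower members did. What sets the level of the stretch in the mir-200c knockouts was not tested.

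**Figure D5:**
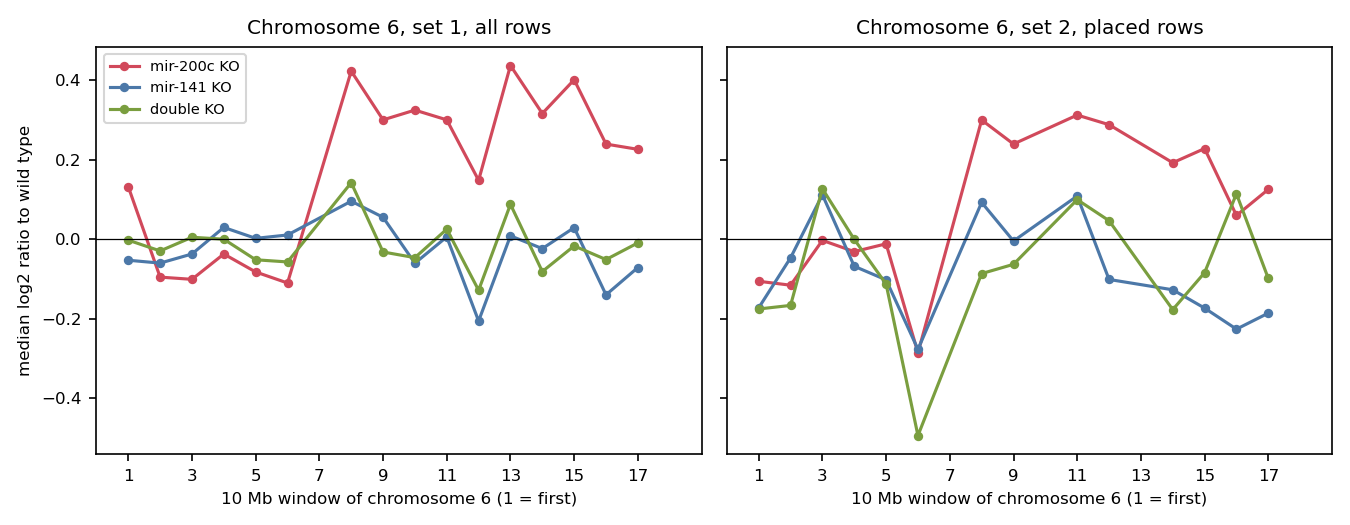
Median log2 ratio to wild type (vertical) of successive 10 Mb windows of chromosome 6 (horizontal, window 1 first) for the 3 knockout clones of set 1, all rows (left), and of set 2, placed rows (right), in windows with at least 5 rows. In set 1 the mir-200c knockout lies above 0 in every window drawn from window 8 onwards, with medians up to 0.44.

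Near the targeted cluster itself, 15 rows lay within 250 kb of the microRNAs on chromosome 12, and 1 was a member. This was SPSB2 (chr12:6870935-6889358), 74.4 kb away, which overlaps TPI1 (-0.02 in the mir-200c knockout) and LRRC23 (0.26) on the opposite strand and is therefore uncertain. At its placed row SPSB2 had 0.68 in the mir-200c knockout of set 2, 0.61 in the mir-141 knockout and 0.58 in the double knockout. The 15 rows together had medians of -0.03, 0.11 and 0.02 in the mir-200c, mir-141 and double knockouts of set 1. None of the other rows was as high as SPSB2 in the mir-200c knockout of set 1, the next being PTPN6 (0.30). RBP5 (-0.96) and CLSTN3 (-0.78), 160 and 166 kb from the microRNAs, were shifted the other way in that clone. In the mir-141 knockout these 2 genes had -0.45 and -0.43, and in the double knockout 0.17 and -0.21.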

How the data were processed

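Poly(A)-selected RNA of 8 SK-BR-3 libraries was read on a HiSeq 2000, per the labels' protocols. The submitters' processing notes name TopHat2, without a version, and the genome build GRCh37.p10. Those notes and the labels do not say how reads were counted, by strand or not, or how values were scaled or which rows were kept. In 6 columns the authors deposited log2 ratios, each of 1 knockout clone over the wild-type library of that set. A low gene therefore weighs as much as a high one, the depth of each library is unknown, and no interval was given. Columns of samples outside the series numbered 0.

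Members were taken from the set 1 log2 ratios. The members and all 29 gene lists were chosen with earlier results of these data known. With 1 library per group in each set, no test was made; counts and medians stand beside those of all rows. Genes named are the 15 most extreme members in each direction, members on a gene list, those at or beyond 0.8 in set 2, those nearest the limit and those with an 8-base site; others were named after their values were seen. Of the lower members, 1 is counted but not reported here by name or drawn. Of 9245 rows (9241 symbols), 9240 were matched to GENCODE release 29, 9011 by accession. Seed sites were sought in each gene's longest annotated 3′ UTR. Set 2 rows were placed by a hidden Markov model within 40 rows of their listed position. Python 3.11.15, numpy 2.4.6, pandas 2.3.3, scipy 1.17.1 and numba 0.67.0 were used. Alternatives changed the limits, centring, site length, 3′ UTR, wild type and placement.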

Additional observations from a re-analysis of the deposited data

Results flagged for a closer look

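For 3 placed members the mir-200c knockouts of the 2 sets lay on opposite sides of their wild types, with the set 2 ratio at least 0.3 from 0. ABRACL, a higher member of chromosome 6, had a log2 ratio of 0.89 in set 1 and -0.63 in set 2, where the mir-141 and double knockouts had -0.15 and -0.37. AARD had -0.95 in set 1 and 0.39 in set 2, and MTRNR2L3 had -1.29 in set 1 and 0.41 in set 2; both were also above 0 in the mir-141 and double knockouts of set 2. With 1 library per group in each set these differences were not tested. ABRACL and AARD were placed with probabilities of 0.935 and 0.902, near the limit of 0.9, and MTRNR2L3 with 0.991.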

How the results depend on the processing

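The 33 higher and 28 lower members became 110 and 107 with a limit of 0.6 for the mir-200c knockout and 10 and 15 with 1.0. They became 16 and 12 with a limit of 0.2 for the other clones and 57 and 49 with 0.4. Leaving out the wild type or 1 of the other knockouts gave 40 to 124 higher and 43 to 74 lower rows; the most came without the double knockout in both directions. Centring columns gave 38 and 29. The share of members with the same sign in the mir-200c knockout of set 2 was 57.6% for higher members as listed. It was 86.7% at placed rows, 85.2% at a placement probability of at least 0.5, and 81.8% with all members placed. Placed on the mir-141 and double columns it was 100% at 0.9 and 75.8% for all. At that limit fewer higher members remained, and ABRACL (0.763) and COL5A1 (0.899), which had the opposite sign, fell below it. Of the rows placed that way outside the chromosome 6 stretch, 48.3% were above 0. For lower members it was 57.1% as listed and between 71.4% and 76% under the 5 placements. Members at or beyond 0.8 in set 2 were 0 in each direction as listed, 1 in each with a limit of 0.6, and 4 in each at placed rows. With 8-base sites alone the mir-141-3p share of higher members was 6.06%, against 5.65% of all rows. Both shares of lower members were then 0%, where the mir-200c-3p share of all rows was 5.04%. With 6 bases the mir-200c-3p share was 18.2% of higher and 22.2% of lower members, against 40.6% of all rows. No paired analysis was possible because the results come from no test: set 1 chose the members and so cannot test them, and set 2 holds 1 library per group. Depth is unknown, so it cannot be said which ratios rest on few reads.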
